A study of Mus musculus with 16 samples.

Results

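The genes described here build and run the mitotic spindle, separate the chromosomes and divide the cell. They are 47 genes listed by function, from the entry kinase Cdk1 to the cytokinesis regulator Ect2, and 46 of them were measured, out of 18193 genes on the arrays. For each gene, probe sets that carry its symbol and no other were taken, and the probe set with the highest mean signal over all 16 arrays was used. Ccnb1, a B-type cyclin that activates Cdk1, is not listed for any probe set of the annotation used and is not analysed here. All 46 measured genes lay above a background level of 4.94 on the log2 scale.

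The samples were 16 tumors of B16-OVA, a melanoma line of mouse carrying the ovalbumin antigen, with 4 mice to a group and a single array for each mouse. All tumors grew under the flank skin of C57BL/6-Ly5.1 mice aged 6 to 12 weeks, injected in PBS and Matrigel. Control mice received vehicle (MCT) daily and control IgG. CD40 mice received vehicle and an agonist antibody against CD40, a receptor on antigen-presenting cells, given into the peritoneal cavity on days 3, 5 and 7 of treatment and again 1 day ahead of the analysis. MEKi mice received GDC-0623, an inhibitor of the MEK kinases, at 30 mg/kg daily with control IgG, and MEKi+CD40 mice received both agents. All tumors were taken on day 18 after inoculation, at the end of about 2 weeks of treatment. The question put to these genes was how far either agent, and both together, moved the transcripts of cell division. RNA came from snap-frozen whole tumor, so that tumor cells, immune cells, stroma and neighbouring tissue share each value, and fewer cells of a dividing type cannot be told apart from less RNA per cell.

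A cell enters mitosis when Cdk1 is switched on by its cyclins, and the kinases Plk1, Aurka and Aurkb then drive spindle assembly and chromosome attachment. Kinetochores tie each chromosome to spindle microtubules, the checkpoint holds the cell until all are attached, and the anaphase-promoting complex then releases the sister chromatids. Most of these genes are transcribed in G2 and mitosis, so that in a mixed tissue their transcripts come mainly from cycling cells.

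Promoter sequences are shown for 5 of these genes, because most of these genes were low in the same tumors, and promoters of this kind are known to share short elements. The cell cycle genes homology region (CHR) is known as the element through which the MuvB-containing DREAM and B-MYB complexes reach G2 and M genes, and the CCAAT box is the element bound by NF-Y. RefSeq promoter windows of the mouse assembly GRCm38.p6, each 250 bases before to 50 bases after an annotated transcript start, matched 39 of the 46 genes in 41 windows. The 100 bases before the start are printed 5′ to 3′ along the gene for Cdk1 (chr10:69352913-69353012, minus strand), Cdc20 (chr4:118437344-118437443, minus strand), Ube2c (chr2:164769829-164769928, plus strand), Kif11 (chr19:37376282-37376381, plus strand) and Top2a (chr11:99024190-99024289, minus strand). Capitals mark TTTGAA (or TTCAAA, the same on the other strand) and CCAAT (or ATTGG).
Cdk1: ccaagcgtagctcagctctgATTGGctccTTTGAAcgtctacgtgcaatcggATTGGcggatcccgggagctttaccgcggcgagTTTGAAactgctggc
Cdc20: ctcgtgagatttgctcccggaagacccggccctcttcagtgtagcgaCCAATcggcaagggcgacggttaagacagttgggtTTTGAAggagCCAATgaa
Ube2c: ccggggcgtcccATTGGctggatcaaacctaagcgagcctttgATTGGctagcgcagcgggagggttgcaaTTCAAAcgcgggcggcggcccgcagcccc
Kif11: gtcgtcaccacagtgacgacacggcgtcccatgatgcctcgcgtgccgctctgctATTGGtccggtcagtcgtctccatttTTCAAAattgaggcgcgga
Top2a: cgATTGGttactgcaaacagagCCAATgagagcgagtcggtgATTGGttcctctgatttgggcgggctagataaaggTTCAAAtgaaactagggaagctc
TTTGAA, read on both strands, stood in 78% of the 41 windows of the mitosis genes and in 17.9% of all 32851 windows. Its variant TTCGAA stood in 9.76% and 1.56%, and either of these in 82.9% and 19.2%. CCAAT, read on both strands, stood in 73.2% of the mitosis windows and 37.4% of all windows. CCAAT together with 1 of the CHR forms stood in 70.7% and 7.52%. No CHR form was found in the windows of Melk, Birc5, Mad2l1, Pttg1, Cenpe, Nuf2 and Nusap1. These matches are descriptions of the letters in these windows and not evidence of binding in these tumors.

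In MEKi+CD40 tumors 44 of the 46 genes had a lower mean than in control tumors, with a median difference of -1.08 on the log2 scale. Over all 18193 genes the median difference was 0.03. For 34 of the genes all 4 MEKi+CD40 tumors lay below all 4 control tumors, a separation seen downwards in 10.4% of all genes. The differences ran from -1.67 for Trip13, a checkpoint ATPase, to 0.21 for the spindle kinesin Kif15. Against the same controls the median was -0.10 in CD40 tumors, from -0.26 to 0.01 with 1 tumor left out, and -0.21 in MEKi tumors, from -0.38 to -0.06.

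**Figure D1:**
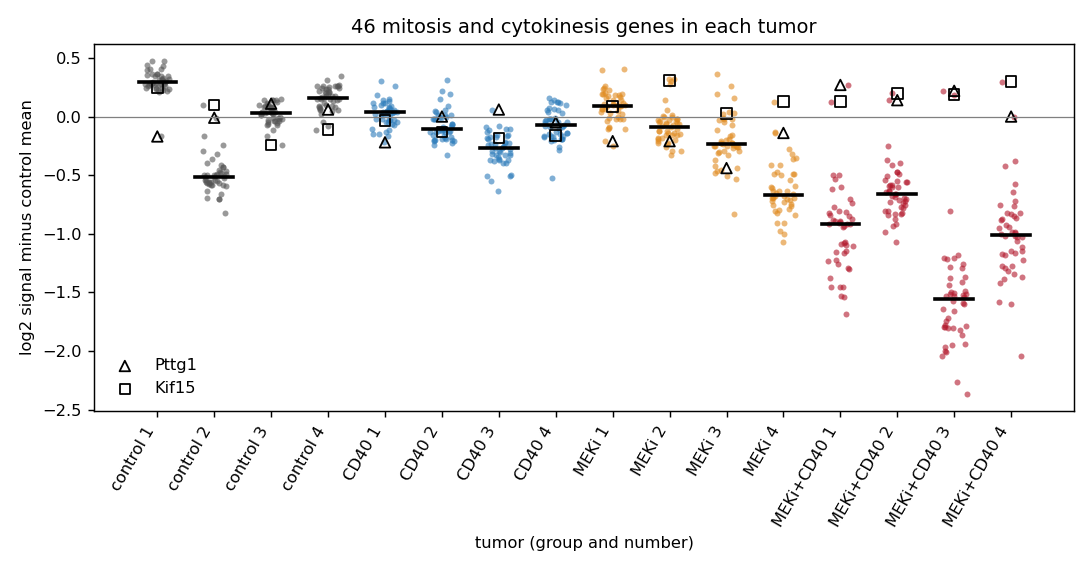
Each point is 1 of the 46 genes in 1 tumor, as log2 signal minus the mean of that gene over the 4 control tumors, and the black bars are the medians. The MEKi+CD40 tumors have medians from -1.55 to -0.66, while control tumor 2 and MEKi tumor 4 lie at -0.51 and -0.66. Pttg1 (triangles) and Kif15 (squares) do not follow the other genes down.

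The median over the 46 genes, taken against the control mean, was 0.29, -0.51, 0.04 and 0.17 in control tumors 1 to 4. It was 0.04, -0.10, -0.27 and -0.07 in the CD40 tumors, and 0.10, -0.08, -0.23 and -0.66 in the MEKi tumors. In the MEKi+CD40 tumors it was -0.92, -0.66, -1.55 and -1.01. MEKi tumor 4 and MEKi+CD40 tumor 2 thus lay at the same level, and the other 3 MEKi+CD40 tumors lay below every tumor of the other groups.

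Within a group the genes shifted together. Control tumor 2 had the lowest value of its group for 44 of the 46 genes, against 27.6% of the 12699 genes above background. MEKi tumor 4 was lowest for 41 genes (21.4% of genes above background), MEKi+CD40 tumor 3 for 43 (23.9%) and CD40 tumor 3 for 43 (42.9%). The median SD of the mitosis genes was 0.37 in control, 0.34 in MEKi and 0.42 in MEKi+CD40 tumors, against 0.14, 0.15 and 0.21 for genes above background. In CD40 tumors it was 0.14 against 0.15. The control, MEKi and MEKi+CD40 tumors thus differed among themselves more in these genes than in most others, and the CD40 tumors did not.

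The tissue itself was checked with fixed marker lists. The 11 melanocyte genes averaged 13.2 to 13.6 in every tumor. Between MEKi+CD40 and control their differences ran from -0.32 for Trpm1 to 0.97 for Oca2, with a median of 0.04 (8 of 11 positive). At an unadjusted p under 0.05 in limma 1 of them was lower and 1 higher, against 2647 and 1981 of all 18193 genes. The share of tumor cells in each tumor was not tested. Transcripts of skeletal muscle were found in 3 tumors. Averaged over 15 muscle genes and set against control, MEKi+CD40 tumor 1 lay at 7.07, MEKi+CD40 tumor 3 at 4.16 and CD40 tumor 3 at 2.91, MEKi tumor 2 at 0.85 and all others between -0.04 and 0.25. MEKi+CD40 tumor 1 also stood apart in the signal of 3′ over 5′ probe sets of Gapdh (gap 0.38) and Actb (gap 0.91), against at most 0.08 and 0.44 elsewhere. Leaving out the 3 muscle-bearing tumors, here and below, kept MEKi+CD40 tumors 2 and 4 alone of their group. The median difference of the mitosis genes between MEKi+CD40 and control was then -0.81. The pan-leukocyte list averaged 7.38 to 9.06 in control, 8.71 to 10.8 in CD40, 6.03 to 8.12 in MEKi and 7.17 to 10.2 in MEKi+CD40 tumors. For the 14 fibroblast and matrix genes the ranges were 8.13 to 8.91, 7.97 to 10.9, 7.94 to 10.8 and 7.81 to 11.99. The 13 macrophage genes averaged 6.80 to 9.09 in control, 8.58 to 10.9 in CD40, 5.21 to 7.99 in MEKi and 6.56 to 10.4 in MEKi+CD40 tumors, and the 10 endothelial genes 6.65 to 7.03, 6.62 to 7.80, 6.10 to 7.27 and 6.71 to 8.38. The 11 T cell genes averaged 4.87 to 5.72, 5.23 to 6.57, 4.70 to 4.85 and 4.84 to 5.85. Only 7, 8, 5 and 7 of them had a group mean above background. Between MEKi+CD40 and control the median difference was 0.54 for the macrophage list (13 of 13 positive) and 0.48 for the pan-leukocyte list (11 of 12). It was 1.02 for the fibroblast and matrix list (14 of 14), 0.55 for the endothelial list (9 of 10) and 0.23 for the T cell list (10 of 11). The tumor averages of these groups overlapped in every one of these lists. At an unadjusted p under 0.05 in limma, 2 fibroblast and matrix genes and 1 endothelial gene were higher, against 1981 of all 18193 genes. No macrophage or T cell gene reached that level. The pan-leukocyte gene Arhgdib (-0.575) was lower at that level, against 14.5% of all genes. The part of leukocytes, vessels and stroma in the levels of the mitosis genes was not tested.

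The mitotic kinases and their cyclins were lower in every MEKi+CD40 tumor than in any control tumor for all 6 genes measured, a separation that 10.4% of all genes and 14.5% of genes above background showed. Cdk1, the kinase that starts mitosis, had a log2 signal of 11.67, 10.75, 11.33 and 11.33 in the 4 control tumors, 11.32, 11.14, 11.04 and 11.12 in the CD40 tumors, 11.25, 11.24, 10.97 and 10.78 in the MEKi tumors and 10.18, 10.69, 9.77 and 10.24 in the MEKi+CD40 tumors. All 4 MEKi+CD40 tumors lay below every control, CD40 and MEKi tumor. Plk1, the kinase of centrosome maturation and spindle assembly, had a log2 signal of 9.95, 9.05, 9.72 and 9.81 in the 4 control tumors, 9.65, 9.55, 9.41 and 9.69 in the CD40 tumors, 9.7, 9.34, 9.17 and 8.73 in the MEKi tumors and 8.9, 8.86, 7.97 and 8.49 in the MEKi+CD40 tumors. MEKi tumor 4 lay in the range of the MEKi+CD40 tumors, so that for Plk1 these 2 groups overlapped. Melk, a kinase of the AMPK family expressed in dividing cells, had a log2 signal of 9.69, 8.86, 9.48 and 9.56 in the 4 control tumors, 9.42, 9.27, 9 and 9.29 in the CD40 tumors, 9.59, 9.38, 9.17 and 8.91 in the MEKi tumors and 8.1, 8.48, 7.13 and 7.98 in the MEKi+CD40 tumors. Its MEKi+CD40 mean was 36% of the control mean on the linear scale, the lowest share among the kinases and cyclins.

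Ccnb2, a B-type cyclin, had a log2 signal of 10.79, 10.34, 10.47 and 10.43 in the 4 control tumors, 10.55, 10.31, 10.22 and 10.25 in the CD40 tumors, 10.26, 10.18, 9.68 and 9.87 in the MEKi tumors and 9.59, 10.26, 9.33 and 10.13 in the MEKi+CD40 tumors. Every MEKi tumor lay below every control tumor, and the MEKi and MEKi+CD40 tumors overlapped. The difference of Ccnb2 between MEKi and control was -0.51 (SE 0.15, 95% interval -0.84 to -0.18, limma adjusted p = 0.604). It was the only mitosis gene without overlap between MEKi and control, where 2.11% of all genes showed such a separation downwards. Aurka and Ccna2, the spindle pole kinase and the A-type cyclin, averaged 10.1 and 11.5 in control tumors and 8.90 and 10.2 in MEKi+CD40 tumors.

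The chromosomal passenger complex, which corrects faulty attachments and later marks the cleavage plane, consists of Aurkb, Incenp, Birc5 and Cdca8. Its kinase Aurkb had a log2 signal of 10.42, 9.35, 10.13 and 10.3 in the 4 control tumors, 10.07, 9.98, 9.67 and 9.89 in the CD40 tumors, 10.25, 10.06, 9.86 and 9.46 in the MEKi tumors and 8.76, 9.35, 8.01 and 8.73 in the MEKi+CD40 tumors. MEKi+CD40 tumor 2 and control tumor 2 were level at 9.35, and the other 3 MEKi+CD40 tumors lay below all tumors of the other groups. Birc5 (survivin) had a log2 signal of 11.53, 10.7, 11.3 and 11.51 in the 4 control tumors, 11.23, 11.17, 10.89 and 11.19 in the CD40 tumors, 11.26, 11.19, 10.78 and 10.51 in the MEKi tumors and 9.81, 10.51, 9.4 and 10.15 in the MEKi+CD40 tumors. Its MEKi+CD40 tumors lay below all control tumors. Incenp, the scaffold of the complex, had a log2 signal of 11.16, 10.32, 10.94 and 11.16 in the 4 control tumors, 10.96, 10.95, 10.79 and 10.97 in the CD40 tumors, 11.13, 10.85, 10.88 and 10.24 in the MEKi tumors and 10.4, 9.96, 9.1 and 9.62 in the MEKi+CD40 tumors. MEKi+CD40 tumor 1 lay at 10.4, above control tumor 2. The differences between MEKi+CD40 and control ran from -0.92 for Cdca8 to -1.34 for Aurkb.

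Among the 9 genes of the spindle checkpoint and of anaphase, 8 were lower in MEKi+CD40 than in control tumors and Pttg1 was not. Trip13, the ATPase that recycles the checkpoint protein Mad2, had a log2 signal of 10.02, 9.13, 9.83 and 9.78 in the 4 control tumors, 9.84, 9.78, 9.53 and 9.82 in the CD40 tumors, 10.1, 10.01, 9.43 and 9.56 in the MEKi tumors and 8.47, 8.62, 7.32 and 7.65 in the MEKi+CD40 tumors. The lowest of the other 12 tumors was control tumor 2 at 9.13, and all MEKi+CD40 tumors lay below it. Trip13 had the most negative difference of the 46 genes against each of the other groups, with MEKi+CD40 at 31.3% of control, 29.5% of MEKi and 30.2% of CD40 tumors. The checkpoint kinase Bub1 had a log2 signal of 11.46, 10.62, 11.1 and 11.27 in the 4 control tumors, 11.07, 11.05, 10.84 and 11.09 in the CD40 tumors, 11.18, 10.93, 11.14 and 10.44 in the MEKi tumors and 9.57, 10.45, 9.32 and 10.16 in the MEKi+CD40 tumors. Bub1 separated MEKi+CD40 from control and CD40 tumors but not from MEKi tumor 4.

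Ube2c, the ubiquitin-conjugating enzyme of the anaphase-promoting complex, had a log2 signal of 12.01, 11.24, 11.81 and 11.81 in the 4 control tumors, 11.66, 11.54, 11.53 and 11.53 in the CD40 tumors, 11.62, 11.54, 11.39 and 10.91 in the MEKi tumors and 10.88, 11.25, 10.34 and 10.7 in the MEKi+CD40 tumors. Here MEKi+CD40 tumor 2 lay 0.01 above control tumor 2, and the MEKi+CD40 mean was 52.7% of the control mean. Cdc20, which activates the same complex, differed by -0.81 (SE 0.21). Espl1, the protease that opens the cohesin ring, differed by -1.32 (SE 0.34).

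Pttg1 (securin), which holds Espl1 inactive until anaphase, had a log2 signal of 11.73, 11.89, 12.01 and 11.96 in the 4 control tumors, 11.68, 11.9, 11.96 and 11.85 in the CD40 tumors, 11.69, 11.69, 11.46 and 11.76 in the MEKi tumors and 12.17, 12.04, 12.12 and 11.9 in the MEKi+CD40 tumors. The MEKi+CD40 tumors all lay above the MEKi tumors and overlapped with control and CD40 tumors. Its differences were 0.16 against control (SE 0.09, limma adjusted p = 0.372) and 0.41 against MEKi (SE 0.10, adjusted p = 0.0642). Both other probe sets of Pttg1 also had positive differences against control, of 0.37 and 0.19.

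At the kinetochore, all 8 genes were lower in every MEKi+CD40 tumor than in any control tumor, as were 10.4% of all genes and 14.5% of those above background. Ndc80, the subunit that grips the microtubule, had a log2 signal of 8.8, 7.85, 8.51 and 8.59 in the 4 control tumors, 8.57, 8.66, 8.17 and 8.41 in the CD40 tumors, 8.58, 8.44, 8.24 and 7.76 in the MEKi tumors and 7.62, 7.6, 6.72 and 7.05 in the MEKi+CD40 tumors. Its MEKi+CD40 tumors lay below all others. Spc24, of the same complex, had a log2 signal of 9.03, 8.49, 8.84 and 8.88 in the 4 control tumors, 8.91, 8.96, 8.51 and 8.94 in the CD40 tumors, 8.91, 8.61, 8.28 and 8.34 in the MEKi tumors and 7.92, 8.21, 7.17 and 7.82 in the MEKi+CD40 tumors. CD40 tumor 3 lay 0.40 below the nearest of its group. Cenpe, the kinetochore kinesin that carries chromosomes to the metaphase plate, had a log2 signal of 10.1, 9.39, 9.75 and 10.03 in the 4 control tumors, 9.86, 9.71, 9.56 and 9.8 in the CD40 tumors, 9.92, 9.56, 9.65 and 9.07 in the MEKi tumors and 8.72, 9.13, 8.6 and 8.94 in the MEKi+CD40 tumors. MEKi tumor 4 at 9.07 lay between the MEKi+CD40 values of 8.94 and 9.13.

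Oip5, a subunit of the Mis18 complex that marks centromeres for new Cenpa, had a log2 signal of 7.67, 6.89, 7.19 and 7.45 in the 4 control tumors, 7.38, 7.09, 6.75 and 7.09 in the CD40 tumors, 7.7, 7.58, 7.03 and 6.95 in the MEKi tumors and 5.85, 6.43, 5.5 and 6.01 in the MEKi+CD40 tumors. All 4 MEKi+CD40 tumors lay below the other 12, and the MEKi+CD40 mean was 39.2% of control. Cenpf, a large protein of the outer kinetochore, had a log2 signal of 10.24, 9.46, 10.04 and 10.27 in the 4 control tumors, 9.84, 9.68, 9.61 and 9.84 in the CD40 tumors, 10.11, 9.78, 10.2 and 9.03 in the MEKi tumors and 9.06, 9.4, 8.47 and 9.28 in the MEKi+CD40 tumors. MEKi tumor 4, at 9.03, lay within the MEKi+CD40 range. Nuf2, Spc25 and Cenpa, the centromeric histone itself, differed between MEKi+CD40 and control by -0.98, -0.94 and -0.96.

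**Figure D2:**
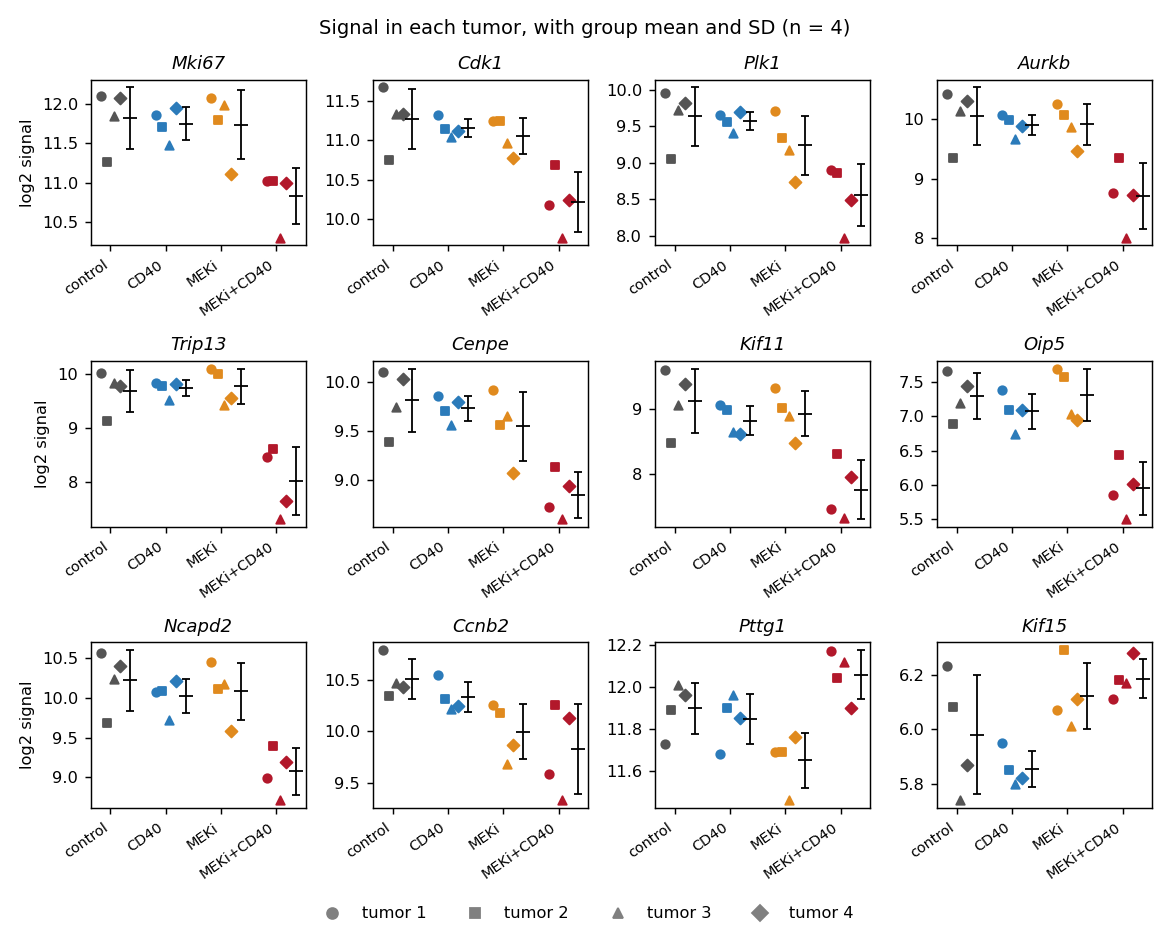
Log2 signal of 12 genes in each of the 16 tumors, with the group mean and SD (n = 4) at the right of each group; the vertical scale differs between panels. Trip13, Kif11 and Oip5 show MEKi+CD40 tumors below all others, and Pttg1 and Kif15 are not lower in MEKi+CD40 tumors. For Ccnb2 every MEKi tumor lies below every control tumor (limma adjusted p = 0.604), as for 2.11% of all genes.

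Of the 9 spindle motors and microtubule proteins, 8 were lower in MEKi+CD40 than in control tumors. Kif11 (Eg5), the motor that pushes the spindle poles apart, had a log2 signal of 9.61, 8.47, 9.06 and 9.39 in the 4 control tumors, 9.06, 8.98, 8.64 and 8.61 in the CD40 tumors, 9.32, 9.01, 8.9 and 8.48 in the MEKi tumors and 7.45, 8.3, 7.31 and 7.95 in the MEKi+CD40 tumors. Each MEKi+CD40 tumor lay below each tumor of the other groups. Kif23, the central spindle motor, had a log2 signal of 9.89, 9.08, 9.44 and 9.5 in the 4 control tumors, 9.74, 9.52, 9.24 and 9.51 in the CD40 tumors, 9.47, 9.19, 9.17 and 8.79 in the MEKi tumors and 8.4, 8.75, 7.97 and 8.46 in the MEKi+CD40 tumors. Its MEKi+CD40 tumors also lay below all others. Kif2c, which depolymerises microtubules at the centromere, had a log2 signal of 9.9, 8.99, 9.57 and 9.84 in the 4 control tumors, 9.53, 9.59, 9.33 and 9.44 in the CD40 tumors, 9.56, 9.42, 9.28 and 8.51 in the MEKi tumors and 8.7, 8.8, 8.09 and 8.41 in the MEKi+CD40 tumors. MEKi tumor 4 lay within the MEKi+CD40 range.

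Nusap1, which bundles spindle microtubules, had a log2 signal of 10.68, 9.84, 10.52 and 10.57 in the 4 control tumors, 10.38, 10.21, 9.77 and 10.12 in the CD40 tumors, 10.37, 10.21, 9.98 and 9.4 in the MEKi tumors and 9.03, 9.93, 8.97 and 9.48 in the MEKi+CD40 tumors. MEKi+CD40 tumor 2 lay above control tumor 2, and the difference of the means was -1.05 (SE 0.25). Kif4, Kif20a, Tpx2 and Hmmr differed from control by -1.16, -1.26, -0.94 and -0.83. Kif15, a second spindle motor named here because it ran against the class after its values were seen, had a log2 signal of 6.23, 6.08, 5.74 and 5.87 in the 4 control tumors, 5.95, 5.85, 5.8 and 5.82 in the CD40 tumors, 6.07, 6.29, 6.01 and 6.11 in the MEKi tumors and 6.11, 6.18, 6.17 and 6.28 in the MEKi+CD40 tumors. The MEKi+CD40 tumors lay above every CD40 tumor and overlapped with the control and MEKi tumors. Kif15 has 1 probe set.

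The cytokinesis class had the smallest median difference of the 7 classes, -0.74. Prc1, which bundles the central spindle, had a log2 signal of 10.74, 9.94, 10.55 and 10.59 in the 4 control tumors, 10.53, 10.33, 10.3 and 10.37 in the CD40 tumors, 10.6, 10.4, 10.5 and 9.76 in the MEKi tumors and 9.92, 9.97, 9.25 and 9.63 in the MEKi+CD40 tumors. MEKi+CD40 tumor 2 lay 0.03 above control tumor 2, and MEKi+CD40 was at 58.9% of control. Ect2, the exchange factor that starts the cleavage furrow, had a log2 signal of 10.46, 9.54, 9.86 and 10.24 in the 4 control tumors, 10.14, 9.85, 9.91 and 9.98 in the CD40 tumors, 10.29, 10.35, 10.29 and 9.75 in the MEKi tumors and 9.41, 9.61, 8.73 and 9.45 in the MEKi+CD40 tumors. MEKi+CD40 tumor 2 was above control tumor 2. Anln (anillin), a scaffold of the contractile ring, had a log2 signal of 11.56, 11.02, 11.25 and 11.22 in the 4 control tumors, 11.45, 11.24, 11.16 and 11.23 in the CD40 tumors, 11.37, 11.21, 11.63 and 10.9 in the MEKi tumors and 10.37, 10.89, 10.06 and 10.84 in the MEKi+CD40 tumors. Its MEKi+CD40 tumors lay below every control tumor, by 0.13 at the closest.

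Racgap1, the partner of Kif23 in the central spindle, had a log2 signal of 10.32, 9.45, 9.87 and 9.99 in the 4 control tumors, 9.99, 9.9, 9.6 and 9.77 in the CD40 tumors, 9.96, 9.82, 9.67 and 9.3 in the MEKi tumors and 8.65, 9.32, 8.32 and 8.92 in the MEKi+CD40 tumors. Its difference from control, -1.11 (SE 0.24), was the largest of the 4 cytokinesis genes. The medians of the other classes lay between -0.98 and -1.21.

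The condensin and chromosome structure genes were lower in every MEKi+CD40 tumor than in every control tumor for all 6 genes (10.4% of all genes), and this also held against every MEKi tumor (8.99% of all genes) and every CD40 tumor (8.2% of all genes). Ncapg, a condensin I subunit, had a log2 signal of 9.41, 8.47, 9.25 and 9.3 in the 4 control tumors, 9.2, 9.3, 8.98 and 9.25 in the CD40 tumors, 9.14, 8.99, 8.85 and 8.41 in the MEKi tumors and 8.19, 8.37, 7.16 and 7.74 in the MEKi+CD40 tumors. Control tumor 2 and MEKi tumor 4 were the lowest of their groups and still above MEKi+CD40 tumor 2. Ncapd2, of the same complex, had a log2 signal of 10.57, 9.68, 10.24 and 10.4 in the 4 control tumors, 10.08, 10.09, 9.72 and 10.21 in the CD40 tumors, 10.45, 10.12, 10.18 and 9.59 in the MEKi tumors and 8.99, 9.4, 8.71 and 9.2 in the MEKi+CD40 tumors. Its MEKi+CD40 mean was 45.1% of control. Smc2, the ATPase shared by both condensins, had a log2 signal of 11.34, 10.53, 11.18 and 11.33 in the 4 control tumors, 11.14, 11.03, 10.86 and 11.08 in the CD40 tumors, 11.2, 11.11, 11.08 and 10.68 in the MEKi tumors and 9.94, 10.42, 9.31 and 9.95 in the MEKi+CD40 tumors. All of its MEKi+CD40 values stood below 10.53, the lowest of the controls.

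Top2a, the topoisomerase that untangles sister chromatids, had a log2 signal of 12.08, 11.13, 11.98 and 12.15 in the 4 control tumors, 11.88, 11.85, 11.75 and 11.88 in the CD40 tumors, 12, 11.68, 11.61 and 11.04 in the MEKi tumors and 11.02, 11.03, 9.87 and 10.25 in the MEKi+CD40 tumors. MEKi tumor 4 lay 0.01 above the highest MEKi+CD40 tumor. Mki67 (Ki-67), the coat protein of mitotic chromosomes used as a proliferation marker, had a log2 signal of 12.1, 11.26, 11.84 and 12.08 in the 4 control tumors, 11.86, 11.71, 11.48 and 11.95 in the CD40 tumors, 12.07, 11.79, 11.98 and 11.11 in the MEKi tumors and 11.02, 11.02, 10.3 and 11 in the MEKi+CD40 tumors. Its MEKi+CD40 tumors lay below the other 12, 3 of them close together and tumor 3 apart. The MEKi+CD40 mean of Mki67 was 50.5% of control (difference -0.98, SE 0.23).

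The tests were read against all genes. In the comparison of MEKi+CD40 with control, 44 of the 46 genes were lower at an unadjusted p under 0.05, against 14.5% of all genes. Among genes above background 20.2% were lower at that level, and 14.5% were lower without overlap of the groups. None of the 46 passed an adjusted p of 0.05 in limma over all 45037 probe sets, where 4 probe sets passed in all and 0% of the 18193 genes were called lower. Their adjusted p ran from 0.0517, shared by Trip13, Oip5, Cenpe, Ncapd2 and Kif23, to 0.372 for Pttg1. With all 16 arrays in 1 fit 44 of the 46 passed (10.9% of all probe sets), with array weights 39 (6.89%) and with a filter on low signal 32 (7.52% of the 27146 probe sets kept). None passed with the replicate block, cyclic loess, median centring or without the 3 muscle-bearing tumors, and no probe set on the array did. The last of these kept MEKi+CD40 tumors 2 and 4 alone of their group. Without control tumor 2, 37 passed (3.35% of all probe sets), without MEKi+CD40 tumor 2, 30 (5.17%), and without MEKi+CD40 tumor 1, 13 (3.01%). Without control tumor 1, 3 or 4, or MEKi+CD40 tumor 3 or 4, none did, nor did any other probe set on the array.

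**Figure D3:**
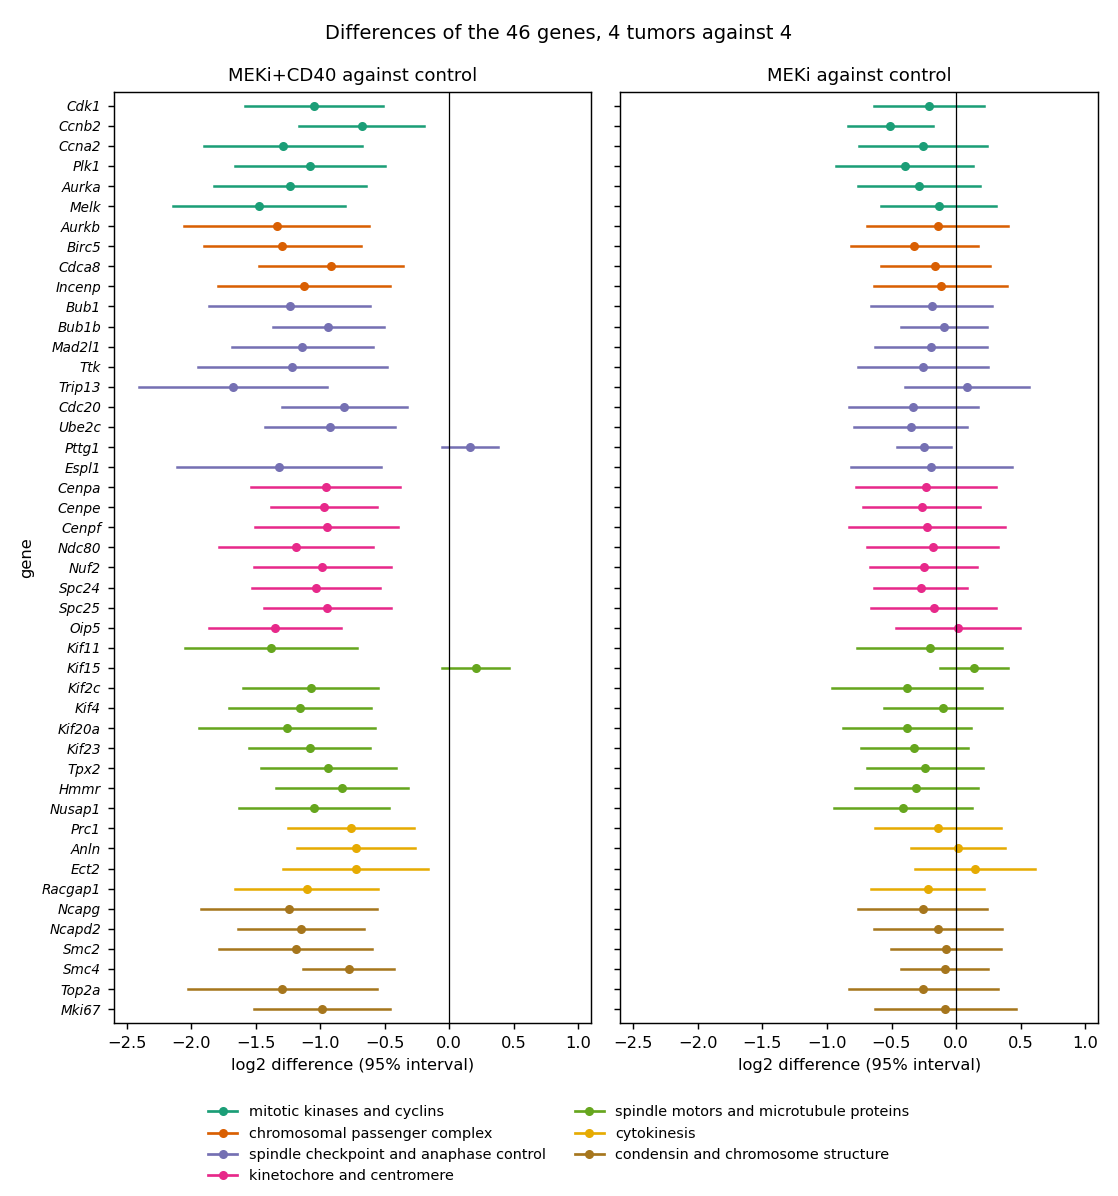
Log2 difference of each of the 46 genes with its 95% interval, MEKi+CD40 against control (left) and MEKi against control (right), 4 tumors against 4 in the same controls, coloured by function. On the left 44 intervals lie below 0 and those of Pttg1 and Kif15 cross it. On the right those of Ccnb2 and Pttg1 lie below 0 and the rest cross it.

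The comparison of MEKi+CD40 with CD40 asks what the MEK inhibitor added to the antibody. In it 36 of the 46 genes fell (limma, adjusted p under 0.05 over all probe sets), against 3.29% of all genes called lower, and 42 were lower without overlap, against 8.2%. Kif15 rose, by 0.33 (SE 0.07, adjusted p = 0.0444), where 3.15% of all genes were called higher. The genes that fell included all 4 of the chromosomal passenger complex and all 6 of condensin and chromosome structure, 8 of 9 checkpoint and anaphase genes, 5 of 6 kinases and cyclins, 6 of 8 kinetochore genes, 5 of 9 motors and microtubule proteins and 2 of 4 cytokinesis genes.

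By adjusted p, Cenpe led with a fall of 0.89 (SE 0.13, adjusted p = 0.0260). Kif23 fell by 1.11 (SE 0.17, adjusted p = 0.0276) and Trip13 by 1.73 (SE 0.28, adjusted p = 0.0286). Cdk1 fell by 0.94 (adjusted p = 0.0338), Mki67 by 0.92 (adjusted p = 0.0366) and Aurkb by 1.19 (adjusted p = 0.0402). The 9 genes that did not pass were Ccnb2 (-0.51), Pttg1 (0.21), Cenpa (-0.74), Cenpf (-0.69), Tpx2 (-0.80), Hmmr (-0.64), Nusap1 (-0.77), Anln (-0.73) and Ect2 (-0.67), with adjusted p from 0.0638 to 0.242.

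These calls depended on which tumors were kept. The count dropped from 37 to 0 without CD40 tumor 1, 2 or 4 and without MEKi+CD40 tumor 3 or 4. In those runs at most 0.162% of all probe sets passed. The count dropped to 9 without CD40 tumor 3 (1.69% of all probe sets). Without MEKi+CD40 tumor 1 it was 35 (7.79%), and without MEKi+CD40 tumor 2 it was 37 (4.99%). The median difference stayed between -1.11 and -0.83 in these repeats. Without the 3 muscle-bearing tumors it was -0.78, with 30 of the genes called (3.39% of all probe sets). The macrophage and pan-leukocyte lists had medians of -0.75 and -0.87 in this comparison, the fibroblast and matrix list of 0.91, and their part was not tested.

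The comparison of MEKi+CD40 with MEKi asks what the antibody added to the inhibitor. The median difference was -0.86, and 2 genes fell: Trip13 by 1.76 (SE 0.31) and Oip5 by 1.37 (SE 0.24), both at a limma adjusted p of 0.0496. Of all genes 0.786% were called lower. At an unadjusted p under 0.05, 42 genes were lower, against 13% of all genes, and Pttg1 was higher, against 11.6%. Ccnb2 (-0.17, and 0.20 without the 3 muscle-bearing tumors), Cdc20 (-0.48) and Kif15 (0.06) did not reach it. The MEKi+CD40 tumors lay below all MEKi tumors without overlap for 23 genes, against 8.99% of all genes, and MEKi tumor 4 was the lowest MEKi tumor for 41 of the 46. Neither call held without MEKi tumor 1, 2, 3 or 4, or without MEKi+CD40 tumor 3 or 4. None of the 46 genes passed in these repeats, where at most 1.07% of all probe sets did. Without MEKi+CD40 tumor 2, 14 passed (3.23% of all probe sets). With all 16 arrays in 1 fit 34 passed (10.4% of all probe sets). Without the 3 muscle-bearing tumors none did, as no probe set on the array did, and the median was -0.59. Markers of other cells also stood higher in MEKi+CD40 than in MEKi tumors. Of 13 macrophage genes all had positive differences, with a median of 2.27, and 8 had an unadjusted p under 0.05. Of 12 pan-leukocyte genes 11 were positive (median 1.63, 7 higher at that level), and of 11 T cell genes 9 (median 0.48, 6 higher). Only 5 of the T cell genes had a mean above background in MEKi tumors, and 7 in MEKi+CD40 tumors. The other pan-leukocyte gene, Arhgdib, was lower at that level (-0.55), against 13% of all genes. None of them passed the adjusted threshold in limma, and their part in the differences of the mitosis genes was not tested.

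Either agent alone was set against the same 4 control tumors. In CD40 tumors none of the 46 genes passed in limma and none had an unadjusted p under 0.05, where 5.94% of all genes were lower and 4.04% higher at that level. Their median, -0.10, was 0.01 without control tumor 1 and -0.26 without control tumor 2. Their differences ran from -0.31 for Kif11 to 0.18 for Ttk, with a median half-width of the 95% interval of 0.39. In MEKi tumors none passed either, and 2 genes were lower at an unadjusted p under 0.05, against 4.21% of all genes: Ccnb2, above, and Pttg1, by -0.25 (SE 0.09). The differences ran from -0.51 for Ccnb2 to 0.15 for Ect2 with a median half-width of 0.48, and 41 of 46 were negative. The median, -0.21, was -0.06 without MEKi tumor 4, -0.09 without control tumor 1 and -0.38 without control tumor 2. The comparison could thus not resolve decreases of the size of the MEKi median.

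The interaction, which asks whether the combination differed from the sum of the effects of its agents, was fitted over all 16 arrays. Its median over the 46 genes was -0.79, and 43 were negative, but none passed an adjusted p of 0.05 in limma, as no probe set on the array did. At an unadjusted p under 0.05, 31 genes were negative, against 8.35% of all genes, and Pttg1 was positive at 0.46 (SE 0.13, adjusted p = 0.119), against 9.22%. Trip13 had the smallest p, with an interaction of -1.81 (SE 0.38, 95% interval -2.62 to -1.01, adjusted p = 0.0971). For Mki67 it was -0.83 (SE 0.33, adjusted p = 0.251) and for Ccnb2 0.01 (SE 0.27).

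Genes beyond the 46 were read from a list of 83 other mitosis genes, of which 77 were measured, and from 38 DNA replication genes, of which 37 were measured. Between MEKi+CD40 and control the other mitosis genes had a median of -0.96, and the replication genes of -1.35. In neither list did a gene pass in limma in that comparison, while 69 of 77 and 37 of 37 were lower at an unadjusted p under 0.05, against 14.5% of all genes. Against CD40 42 of the 77 other mitosis genes and 29 of the 37 replication genes fell, against 3.29% of all genes, and none rose, against 3.15%. Against MEKi 1 and 3 fell, against 0.786%.

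By unadjusted p the first of the other mitosis genes against control were the kinesin Kif18b (-1.18, SE 0.20), the cohesin subunit Smc3 (-0.58, SE 0.10) and the spindle protein Psrc1 (-1.30, SE 0.24). Among replication genes they were Gins3 of the replicative helicase (-0.75, SE 0.10), the polymerase epsilon subunit Pole2 (-1.67, SE 0.29) and the origin protein Orc6 (-1.15, SE 0.21). In MEKi tumors the replication genes had a median of -0.08 against control and the other mitosis genes of -0.16.

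**Figure D4:**
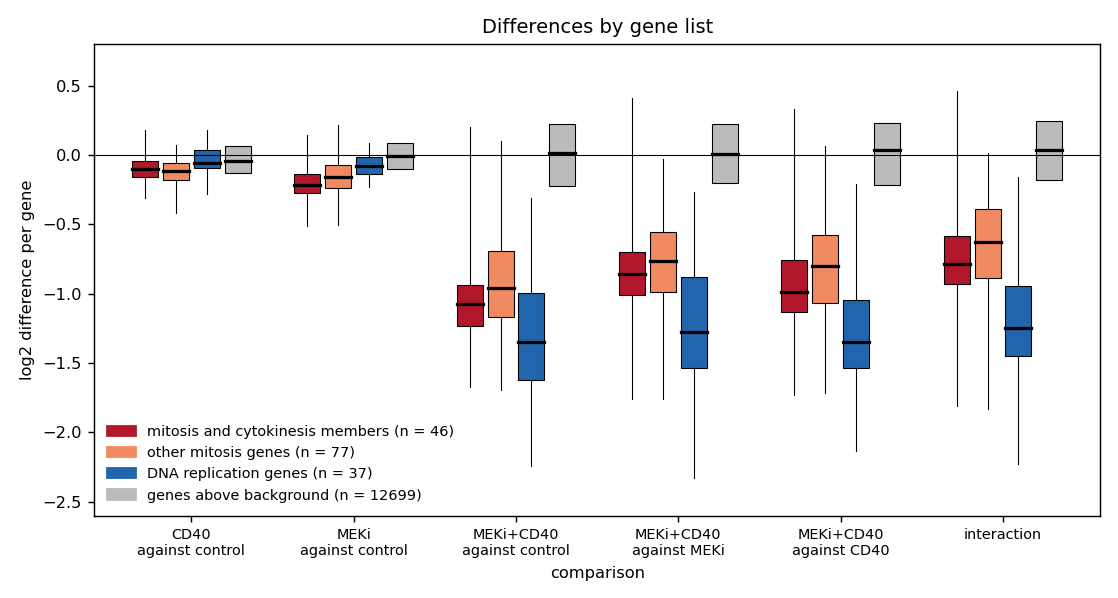
Log2 differences per gene for the 46 mitosis and cytokinesis genes, 77 other mitosis genes, 37 DNA replication genes and the 12699 genes above background, for the 5 comparisons and the interaction. Boxes run from the lower to the upper quartile, bars are medians, and lines reach the lowest and highest gene (not drawn for the genes above background). The 3 division lists lie near or below 0 with either agent alone and well below it in the comparisons of MEKi+CD40, with medians of -1.08, -0.96 and -1.35 against control.

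A gene's other probe sets gave a second reading. Of the 46 genes 29 have more than 1 probe set, with 54 besides those used, of which 45 lay above background. Between MEKi+CD40 and control 43 of these 45 were negative, with a median of -1.04, and both positive ones belonged to Pttg1. The probe sets used for Aurkb, Incenp, Cdc20 and Kif2c carry a suffix that Affymetrix gives where some probes may also match other sequences, and those of Trip13, Pttg1, Prc1 and Cdca8 a suffix for probes shared by several transcripts.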

How the data were processed

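Expression was measured by 1 Affymetrix mouse expression array per tumor from 200 ng of total RNA (3′ IVT Plus labelling). The deposited values are log2 signals that the authors made by robust multichip average (RMA) in Chipster, whose versions are not given in the sources used here. RMA forces all arrays to the same distribution of signals, so differences are relative to the rest of the array. The deposited log2 values were used as they stand. Groups came from the sample labels.

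64 control probe sets were left out and 45037 tested. For every comparison of 2 groups, its 8 arrays alone were fitted in limma 3.58.1 (R 4.3.3) by lmFit and eBayes, as in the study's methods, with Benjamini-Hochberg adjustment over all probe sets and a threshold of 0.05. The interaction used all 16 arrays. The comparisons share tumors and are not independent of each other. As background served the 95th percentile over 44 olfactory receptor probe sets of their mean signal. Probe sets with 1 symbol in the GEO platform annotation cover 18193 genes, shown by their brightest probe set. SD is over the 4 tumors of a group, each from a separate mouse. SE is limma's moderated standard error of a difference, over the 8 arrays compared or all 16 for the interaction. The number of arrays limits the precision. Intervals are 95% intervals of limma's moderated test. The code was tested on simulated data.

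Values in every tumor are given for 10 representatives of the classes fixed by name and for genes with the smallest p per comparison and per class. The members and lists were chosen with earlier results of these data known. Alternatives were 1 fit over 16 arrays, a replicate block, a filter at background, cyclic loess, median centring, trended and robust eBayes, array weights, the mean of a gene's probe sets, a muscle covariate, leaving out the 3 muscle-bearing tumors, and leaving out each tumor. The fit of all other arrays without these 3 tumors was added after seeing the data. Sequences were read and motifs counted in Python 3.11.15 with pandas 2.3.3.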

Additional observations from a re-analysis of the deposited data

Results flagged for a closer look

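Of 120 sets of 4 tumors (30 genes in 4 groups), 8 had a tumor farther from the others than Dixon's 95% critical value for 4 samples allows, as gap over range. Chance gives about 1 in 20 such sets, and the genes move together within a tumor, so the 8 are not independent. CD40 tumor 3, which holds muscle transcripts, was the lowest of its group for Spc24 (ratio 0.889), Incenp (0.889) and Bub1 (0.84). Control tumor 2 was the lowest control for Top2a (0.833, at 11.13 with the nearest at 11.98) and Ncapg (0.830). MEKi+CD40 tumor 3 was the lowest of its group for Mki67 (0.972, at 10.3 with the others between 11 and 11.02). MEKi tumor 4 was the lowest for Ect2 (0.9, at 9.75 with the nearest at 10.29), and CD40 tumor 1 was the highest of its group for Ube2c (0.923, at 11.66 with the nearest at 11.54). The part of muscle transcripts in the low values of CD40 tumor 3 and MEKi+CD40 tumor 3 was not tested, and control tumor 2 and MEKi tumor 4 had muscle scores of -0.01 and 0.25.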

How the results depend on the processing

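The 1 fit over 16 arrays, the replicate block, the filter and trended and robust eBayes cannot change a difference of group means here. They change only its SE and p. Under the other alternatives the median difference of the 46 genes stayed negative in the comparisons of MEKi+CD40 and in the interaction. For either agent alone it moved by more than 1.5 times. Leaving out 1 tumor gave medians of -0.26 to 0.01 for CD40 against control, -0.38 to -0.06 for MEKi against control, -1.25 to -0.91 for MEKi+CD40 against control, -0.99 to -0.69 against MEKi, -1.11 to -0.83 against CD40 and -0.91 to -0.63 for the interaction. The count of genes past the adjusted threshold did move, and the cause was not tested. Calls over the whole array moved too, as the percentages of all features tested in brackets show. For MEKi+CD40 against control the count was 0, where 4 of 45037 probe sets passed. It became 44 with all 16 arrays in 1 fit (10.9%) and 32 with the filter on low signal (7.52%). With trended and robust eBayes it was 9 (1.61%), with array weights 39 (6.89%) and with the mean of probe sets 18 (3.73%). With the muscle covariate it was 19 (2.62%). In 1 fit of all other arrays without the 3 muscle-bearing tumors it was 4 (1.42%). Leaving out 1 tumor gave 0 to 37 (0% to 5.17%). For MEKi+CD40 against MEKi the 2 became 34 with all 16 arrays in 1 fit (10.4%) and 12 with the filter (5.98%). Array weights gave 15 (5.44%), the mean of probe sets 10 (3.11%) and the muscle covariate 5 (3.08%). In 1 fit of all other arrays without the muscle-bearing tumors it was 1 (1.21%). The count was 0 with cyclic loess, with median centring and without the muscle-bearing tumors (0% each). With 1 tumor left out it was 0 to 14 (0% to 3.23%). For MEKi+CD40 against CD40 the 37 became 11 in 1 fit of all other arrays without the muscle-bearing tumors (4.06%). With 1 tumor left out they became 0 to 37 (0% to 7.79%). For the interaction 0 became 1 with array weights (1.68% of all probe sets) and 0 to 1 with 1 tumor left out (at most 1.24%). CD40 and MEKi against control gave 0 in every run. No gene of the 46 changed sign in MEKi+CD40 against control or against CD40 under the alternatives that can change a difference. Against MEKi Ccnb2 turned positive without the muscle-bearing tumors (0.20) and with the muscle covariate (0.07). In CD40 against control 14 genes changed sign without control tumor 1, among them Racgap1 (-0.245 to 0.045 with 1 tumor left out), and 10 without control tumor 2, and in MEKi against control 10 did without MEKi tumor 4.

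The replicate numbers of the labels did not pair the tumors: the deviations of same-numbered tumors correlated at r = -0.52 to 0.47, and 7 of 24 such pairs were over 0.1. With the replicate number as a block 0 genes passed in MEKi+CD40 against CD40 and 0 against MEKi, as no probe set on the array did. Each group holds every replicate number, so the block cannot change the medians. Signal over background limits Kif15 and Oip5, the 2 genes whose means came within 2 log2 units of the background level in a group.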
